A study of Homo sapiens with 20 samples.

Results

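The data describe transcripts in which an intron, or a piece of one, is kept in the RNA. They are the transcripts that the GENCODE annotation types as retained_intron and that belong to protein-coding genes. The rule for a member is that type alone, with the version number removed from each transcript identifier, and it uses no measured value. There were 26726 such transcripts among the 198968 transcripts with values, in 9284 of 19563 protein-coding genes, and 24672 of them had a count in at least 1 sample. For each gene the estimated counts of its retained-intron transcripts were summed and expressed as a percentage of all counts of the gene, which is called the share here. Of the 9284 genes, 4883 had at least 200 counts in every sample, and these hold 16315 of the retained-intron transcripts. The share was tested in the 3793 of these genes with a mean of at least 10 retained-intron counts and 10 other counts, which hold 14573 of the transcripts.

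RNA-seq was made of NGP cells, an established human neuroblastoma line, so every sample is of that 1 line. One group of 10 samples was treated with nutlin-3 as a racemic mixture at 8 µM, a small molecule that binds MDM2 and thereby frees p53 from it. The other 10 samples received ethanol, the vehicle. Poly(A) RNA was made into stranded libraries and sequenced as read pairs, and the deposited estimated counts summed to between 14455477 and 19532971 in the vehicle samples and between 15078052 and 17442896 in the nutlin samples. All 12 neuroblastoma markers examined, among them HAND2 and TH, were above 1 TPM in every sample. Of 7 markers of other cell types, 3 (PTPRC, CD3E and PECAM1) were below 1 TPM in every sample, and COL1A1, a collagen gene, was above 1 TPM in every sample. COL1A1 went from 2.40 to 8.15 TPM and CD68, a macrophage marker, from 0.918 to 4.29 TPM on average, while CD3E was at 0 throughout, and their part in the results was not tested.

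Introns are removed from pre-mRNA by the spliceosome, which recognises a GT at the start of nearly every intron (the 5′ splice site) and an AG at its end (the 3′ splice site). An intron that stays in a polyadenylated RNA often brings a stop codon into the reading frame. Such RNA may be held in the nucleus, where the intron is called detained, or be destroyed in the cytoplasm by nonsense-mediated decay. Some SR proteins, some hnRNP proteins and some kinases that phosphorylate SR proteins are known to keep introns in their own transcripts. This can serve to control their own amount, which was not tested here.

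The annotated type is broader than its name. Only 7993 of the 26726 transcripts (29.9%) contained the whole of at least 1 intron of a protein_coding transcript of the same gene. A further 18288 (68.4%) held part of such an intron, as where a transcript starts or ends inside it, and the remaining kinds made up less than 1% each. The transcripts with a whole intron nevertheless took 49.9% of the retained-intron counts and those with part of an intron 48.8%. A median of 3 retained-intron transcripts was found per gene tested, the highest number was 27, and 656 genes had 1. Within a gene the leading transcript carried a median of 70.5% of the retained-intron counts. The counts of a transcript are estimated from all of its reads, also those in exons that it shares with other transcripts, so they do not say which part of it was covered.

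Among the introns of the genes tested, those held whole by a retained-intron transcript were short and rich in G and C. The 6273 introns of this kind had a median length of 264 bases and a median GC content of 55.1%, and 54.1% were under 300 bases. The 65131 introns that no retained-intron transcript held had a median length of 1538 bases, a GC content of 44.9% and 16.8% under 300 bases. Both kinds had the usual ends, GT and AG in 98.0% of the held introns and 98.5% of the others. In the genes whose share was later called higher after nutlin, the held introns had a median of 293 bases and a GC content of 52.1%, against 237 bases and 57.3% in genes with no call and 308 bases and 56.9% in genes called lower. The introns not held differed between these genes too, with a GC content of 43.1% in genes called higher, 46.3% in genes with no call and 47.4% in genes called lower.

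Whole introns of 4 genes and the splice sites of a few others are shown for genes that the results turn on. For each gene this is the shortest coding intron held whole by its most abundant retained-intron transcript of that kind, on the strand of the gene, from the hg38 genome (GRCh38) with GENCODE release 44. The 4 whole introns, with the GT and AG ends in capitals, are intron 13 of 14 of CTSA (chr20:45897807-45898004, plus strand, 198 bases), intron 2 of 5 of BAX (chr19:48955600-48955686, plus strand, 87 bases), intron 2 of 11 of HNRNPA2B1 (chr7:26197733-26197830, minus strand, 98 bases) and intron 8 of 9 of GLT8D1 (chr3:52695303-52695420, minus strand, 118 bases). Their GC content was 60.6%, 50.6%, 32.7% and 37.3%.
CTSA: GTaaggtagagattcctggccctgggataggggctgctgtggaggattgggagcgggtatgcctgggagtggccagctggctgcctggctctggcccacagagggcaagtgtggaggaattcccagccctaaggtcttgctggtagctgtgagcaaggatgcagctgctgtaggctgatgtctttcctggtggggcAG
BAX: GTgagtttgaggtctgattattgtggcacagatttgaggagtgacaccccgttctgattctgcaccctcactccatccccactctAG
HNRNPA2B1: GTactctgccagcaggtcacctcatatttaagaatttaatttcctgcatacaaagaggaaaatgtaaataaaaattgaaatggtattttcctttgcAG
GLT8D1: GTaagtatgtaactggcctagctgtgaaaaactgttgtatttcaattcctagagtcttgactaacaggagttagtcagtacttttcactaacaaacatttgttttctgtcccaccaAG

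The splice sites of longer held introns are given as 30 bases each, with 10 exon bases beside 20 intron bases and the GT or AG in capitals. They are from intron 15 of 20 of CPD (chr17:30455471-30456255, plus strand, 785 bases), intron 11 of 11 of P2RX4 (chr12:121233093-121233522, plus strand, 430 bases), intron 2 of 5 of SRSF4 (chr1:29159487-29160374, minus strand, 888 bases), intron 4 of 12 of CLK1 (chr2:200859747-200860124, minus strand, 378 bases) and intron 6 of 9 of DDB2 (chr11:47234935-47235269, plus strand, 335 bases). The first 3 genes had a higher share after nutlin, DDB2 had a lower share and CLK1 was not called.
CPD, 5′ site: gtacagacagGTatgtagaatgtcatttta
CPD, 3′ site: ctaaatttttctttctatAGtggaaaataa
P2RX4, 5′ site: ttacgagcagGTaggcccctcctggccccc
P2RX4, 3′ site: gcttgtgtccttctttgcAGggtcttgcta
SRSF4, 5′ site: tctggacgcaGTaagcattcaaagggcata
SRSF4, 3′ site: tttatttgaaccttccaaAGgtggatatgg
CLK1, 5′ site: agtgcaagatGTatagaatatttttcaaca
CLK1, 3′ site: gatttatttctctcttttAGatgaaattgt
DDB2, 5′ site: gtcaacgcagGTgtgatatcccagacctca
DDB2, 3′ site: ggggcttttcactttgccAGcttgtttcag

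Retained-intron transcripts took a larger share of the counts in the nutlin samples than in the vehicle samples. Pooled over the 4883 genes, the share was 7.73% ± 0.201 (SD, n = 10) in vehicle and 9.19% ± 0.268 (SD, n = 10) in nutlin samples, a difference of 1.46 percentage points with an SE of 0.106. The vehicle samples ran from 7.43% to 8.11% with a median of 7.72%, and the nutlin samples from 8.74% to 9.62% with a median of 9.14%, so that the groups did not overlap. The median share over the 3793 genes, in which every gene has the same weight, was 6.38% ± 0.258 in vehicle and 7.97% ± 0.199 in nutlin samples. Again every nutlin sample (lowest 7.77%) was above every vehicle sample (highest 6.75%). In samples of bulk RNA, a change in all cells and a larger change in some of them cannot be told apart.

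Both main kinds of the transcripts moved the same way. Transcripts with a whole intron took 3.81% ± 0.131 of the pooled counts in vehicle and 4.64% ± 0.188 in nutlin samples, and those without one took 3.92% ± 0.0750 and 4.55% ± 0.0889. Neither kind overlapped between the groups. With TPM, which divides each count by the length of its transcript, the pooled share was 11.5% ± 0.458 and 12.5% ± 0.524, and here the lowest nutlin sample (11.4%) lay below the highest vehicle sample (12.2%). Other classes of RNA outside the spliced coding transcripts rose beside the retained-intron counts. Counts on lncRNA genes went from 2.40% to 3.93% of all counts, those on transcripts of coding genes without a defined coding sequence from 2.03% to 2.32%, and those on the 7862 transcripts not matched to the annotation from 3.28% to 4.21%, with no overlap between the groups in any of the 3. Their part in the result was not tested. The 3 vehicle samples with total counts within the range of the nutlin samples had pooled shares of 7.58% to 7.78%, below every nutlin sample.

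**Figure D1:**
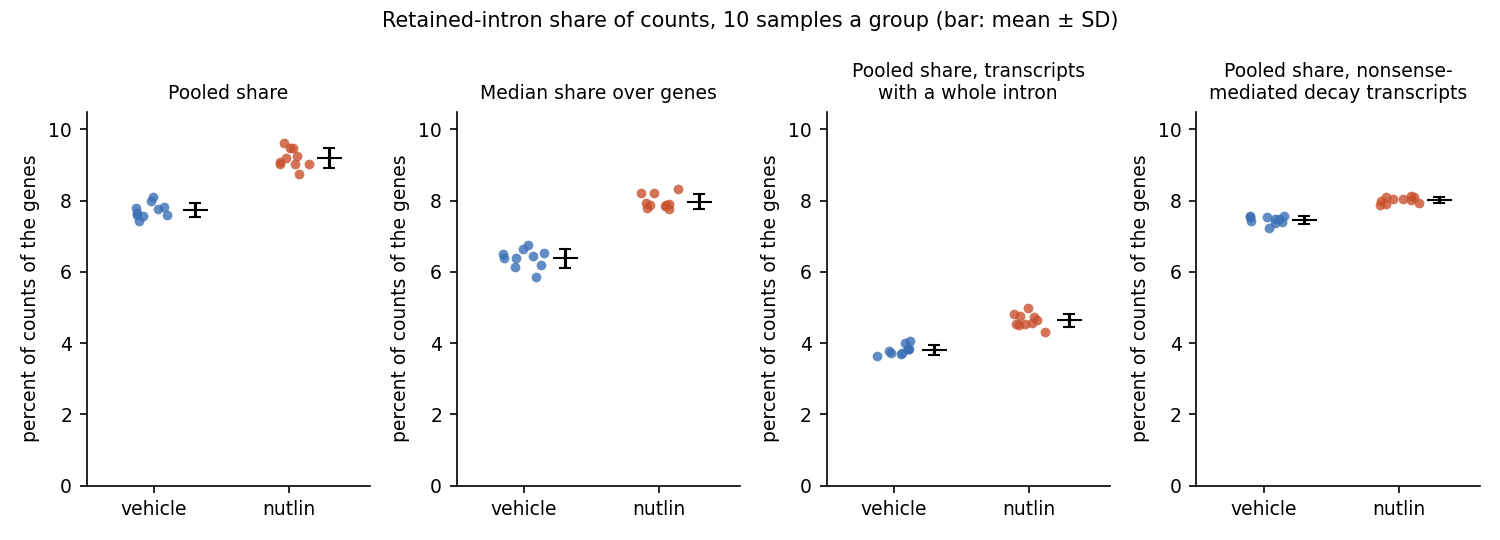
Each point is 1 sample, and the y axis gives retained-intron counts (first 3 panels) or nonsense-mediated decay counts (last panel) as a percentage of all counts of the genes concerned, from 0, with the mean and SD beside the points. In every panel the 10 nutlin samples sit above the 10 vehicle samples, for the pooled share at 8.74% to 9.62% against 7.43% to 8.11%.

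Transcripts annotated as targets of nonsense-mediated decay were compared as the class most like them. Their pooled share was 7.46% ± 0.105 in vehicle and 8.02% ± 0.0891 in nutlin samples, also without overlap. The log2 ratio of retained-intron to nonsense-mediated decay counts was 0.68 ± 0.036 in vehicle and 0.85 ± 0.041 in nutlin samples (SD, n = 10), a difference of 0.17 with an SE of 0.017 (two-sided permutation test, p = 2e-05, the smallest that 100000 resamples can give). The retained-intron counts thus rose by more than those of the decay class. By gene, 569 of 2401 genes (23.7%) had a decay share called higher and 141 (5.87%) one called lower, and the median log2 odds ratio over these genes was 0.29.

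Across the 3793 genes, 1636 (43.1%) had a retained-intron share called higher after nutlin at 5% FDR and 266 (7.01%) one called lower, by edgeR's quasi-likelihood test of the retained-intron counts against all other counts of the same gene. The median log2 odds ratio of nutlin against vehicle was 0.31, with quartiles of 0.01 and 0.63. In 376 of the 3793 genes (9.91%) every nutlin sample was above every vehicle sample, and in 40 (1.05%) every nutlin sample was below. Most shares were small. The median of the gene means was 6.49% in vehicle and 7.99% in nutlin samples, while 811 genes (21.4%) had a mean share above 20% and 161 (4.24%) one above 50%. Most changes were small too, with a median difference of 2.63 percentage points among the genes called higher, of which 406 gained at least 5 points and 96 at least 10. Among the genes called lower the median difference was -3.27 points. The 10 genes with the most retained-intron counts held 12.1% of them.

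**Figure D2:**
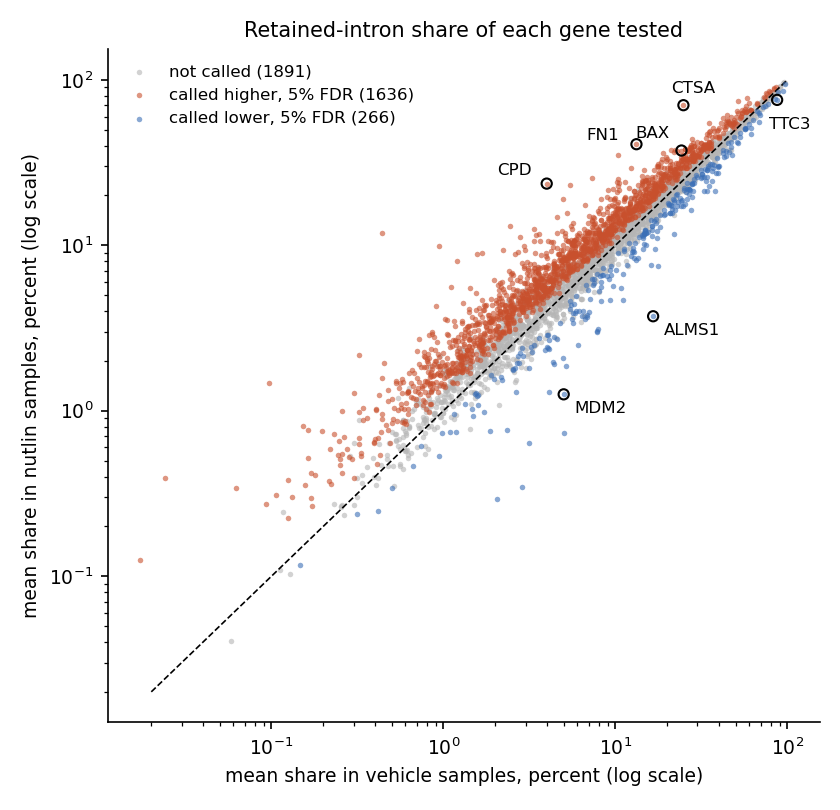
Each point is 1 of the 3793 genes tested, with the mean share of the 10 vehicle samples on the x axis and of the 10 nutlin samples on the y axis, both in percent on log scales, which leave out MPP2 with a vehicle share of 0, and the dashed line marks equal shares. More genes lie above the line (1636 called higher, red) than below it (266 called lower, blue), and the genes circled are described in the text.

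The retained-intron counts and the other counts of each gene were then fitted apart, as levels relative to the whole library. Over all genes tested the retained-intron counts had a median log2 fold change (LFC) of 0.06 and the other counts of -0.28. In 669 of the 1636 genes called higher, the other counts fell while the retained-intron counts were not called. In 369 the retained-intron counts rose and the other counts fell. Both rose in 212 genes and both fell in another 212. The retained-intron counts rose in 163 genes with no call for the other counts, and in the other 11 neither passed the test. Over all 3793 genes the other counts fell in 2380 (62.7%) and rose in 840 (22.1%), against falls in 1250 (76.4%) of the genes called higher, a part that the share itself helps to set. Among the 266 genes called lower, both parts fell in 78, the other counts alone rose in 66, both rose in 48, the retained-intron counts alone fell in 36 and they fell against a rise of the other counts in 35.

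Calls were also counted by the direction of the whole gene. Of 2339 genes tested whose total counts fell, 50.3% had a higher and 4.32% a lower share, against 29.1% and 14.4% of 901 genes whose total rose and 35.8% and 6.33% of 553 genes with no call. Spearman's rho between the LFC of the gene and the log2 odds ratio of the share was -0.28 across the 3793 genes, which share libraries and, within a gene, the counts behind both measures. Over all genes of the files that were tested, 27.9% rose and 21.4% fell.

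**Figure D3:**
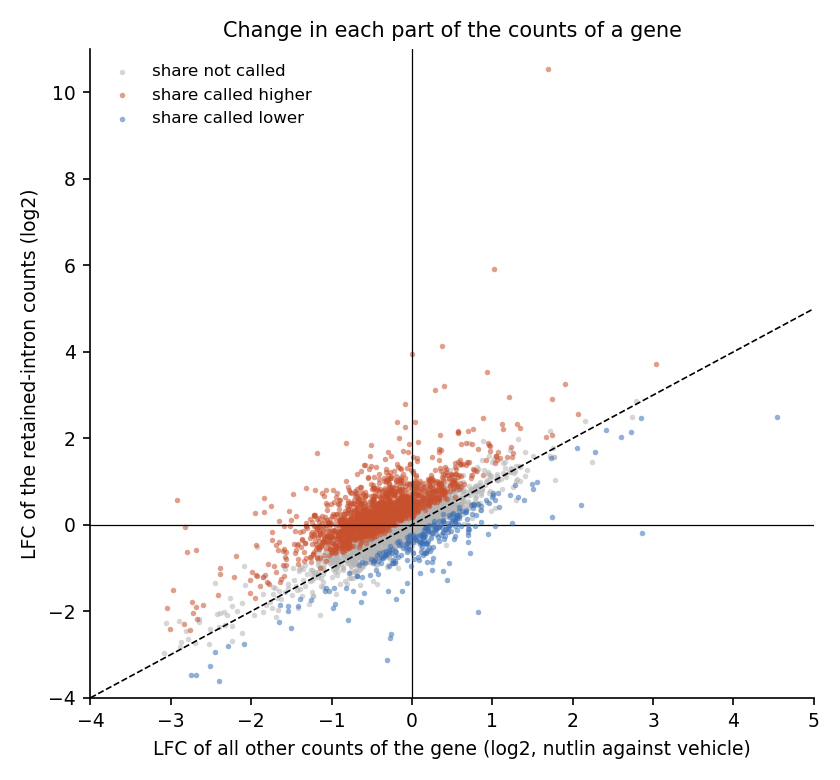
Each point is 1 of the 3793 genes tested, with the LFC of all its other counts on the x axis and the LFC of its retained-intron counts on the y axis, both on the log2 scale for nutlin against vehicle, and the dashed line marks equal change. Genes called higher in share (red) lie above the line, many of them left of 0 on the x axis and near 0 on the y axis, where the other counts fell and the retained-intron counts did not.

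As single transcripts, 9645 retained-intron transcripts had a mean of at least 10 counts, of which 2599 (26.9%) rose and 1299 (13.5%) fell. Of all 56199 transcripts tested, 25% rose and 22.5% fell. Among 30674 transcripts of the type protein_coding, 20.9% rose and 29.3% fell, and among 4316 decay transcripts 20.8% rose and 15.3% fell. Falls were thus more frequent than rises among the coding transcripts and less frequent than rises in both of the other classes.

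Genes of other loci share bases with many of these transcripts. In 1370 of the 3793 genes an exon of a counted retained-intron transcript overlapped an exon of another gene on either strand. The sources used here do not say whether the strand of the reads was used in the counting, so reads of overlapping genes may not have been told apart. The calls were about as frequent without such genes, with 42.9% of the 2423 other genes called higher and 6.64% called lower. The pooled share over these 2423 genes was 7.47% ± 0.216 in vehicle and 8.97% ± 0.274 in nutlin samples, again without overlap. Of the 80 genes chosen for description, 34 had such an overlap, and its part in their shares was not tested.

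The 8 genes with the largest rise in share, in percentage points, were taken from the 324 genes that were called higher with no overlap between the groups and with a mean of at least 50 retained-intron counts. CTSA encodes cathepsin A, a lysosomal carboxypeptidase. Its share ran from 22.1% to 29.1% in vehicle samples (median 24.8%) and from 66.7% to 75.7% in nutlin samples (median 70.3%), with a log2 odds ratio of 2.85 (SE 0.093, adjusted p = 3.97e-16). The retained-intron counts went from 13.6 to 43.2 CPM, a rise, and the other counts from 41.3 to 18.2 CPM, a fall. The main retained-intron transcript, CTSA-207, with 58.8% of these counts, holds 3 whole introns. Its exons overlap those of PLTP on the opposite strand, and PLTP, which encodes a phospholipid transfer protein, went from 8.69 to 126 CPM (LFC 3.67). The part of PLTP reads in the CTSA result was not tested.

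CPD, for carboxypeptidase D of the Golgi, had a share of 3.21% to 5.28% in vehicle samples (median 3.72%) and of 21.7% to 25.7% in nutlin samples (median 23.6%), with a log2 odds ratio of 2.90 (SE 0.096, adjusted p = 3.97e-16). Nearly all of it (98.3%) was CPD-204, a transcript of 2 exons that holds the whole of intron 15 and went from 34.1 ± 6.79 to 246 ± 19.3 counts. The other counts of CPD, at 50.5 and 47.4 CPM, were not called (adjusted p = 0.11). No exon of another gene overlaps CPD-204. P2RX4, an ATP-gated ion channel, rose as a gene with an LFC of 1.68, and its share went from 40.5% to 62.6% (median 53.2%) in vehicle to 68.8% to 76.7% (median 74.6%) in nutlin samples, with a log2 odds ratio of 1.44 (SE 0.15, adjusted p = 4.91e-08). All 4 of its main retained-intron transcripts hold a whole intron and all 4 rose, P2RX4-201 from 35.3 ± 8.48 to 229 ± 39.7 counts.

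FN1, the gene of fibronectin, fell as a whole (LFC -0.77), while its retained-intron counts rose from 3.54 to 6.39 CPM. Its share was 11.1% to 20.3% in vehicle (median 12.1%) and 35.7% to 47.5% in nutlin samples (median 40.9%). BLOC1S6, a subunit of a complex that builds lysosome-related organelles, had shares of 31.6% to 37.7% (median 35.1%) and 52.99% to 57.2% (median 54.5%), with no called change of the whole gene (LFC 0.07). Here 1 transcript with part of an intron, BLOC1S6-212, carried 99.7% of the retained-intron counts. For TMEM45A, a membrane protein gene, they were 51.0% to 65.1% (median 58.2%) and 73.4% to 82.4% (median 77.4%), all from TMEM45A-207 and again with part of an intron.

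LUC7L2 encodes a protein of the U1 snRNP, which binds the 5′ splice site, and its share went from 4.67% to 11.7% (median 7.33%) to 21.1% to 29.9% (median 25.2%). Its 3 main retained-intron transcripts hold parts of introns, and 2 of them overlap exons of FMC1-LUC7L2, a locus of joined transcripts that fell (LFC -0.90). CDCA7L varied more between samples, from 4.59% to 17.7% (median 9.72%) in vehicle and from 26.4% to 47.3% (median 33.9%) in nutlin samples, and the whole gene fell (LFC -1.02). Its main retained-intron transcript, CDCA7L-209, has 78 intronic bases and overlaps DNAH11 on the opposite strand, which went from 0.765 to 7.76 CPM. What these overlapping genes add to the shares was not tested.

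The 8 genes with the largest fall came from 34 genes called lower on the same terms, and 7 of the 8 owed their retained-intron counts mostly to transcripts with no whole intron. CSNK2A2, a catalytic subunit of casein kinase 2, had shares of 64.8% to 70.8% in vehicle (median 68.3%) and of 53.02% to 58.3% in nutlin samples (median 55.03%), with a log2 odds ratio of -0.80 (SE 0.064, adjusted p = 1.16e-09). TTC3, a ubiquitin ligase gene, had the highest shares of the 8, at 86.1% to 88.8% (median 87.0%) and 72.8% to 77.0% (median 75.95%). Its transcript TTC3-214, of 7425 bases and 36 exons, went from 5999 ± 517 to 3379 ± 394 counts. ALMS1, for a protein of the centrosome, went from 6.01% to 24.4% (median 16.7%) to 0.868% to 5.73% (median 4.25%). TASOR, a subunit of the HUSH silencing complex, went from 29.5% to 36.6% (median 34.2%) to 17.7% to 25.5% (median 21.8%), on a transcript with 6 intronic bases that overlaps CCDC66 on the opposite strand, which went from 33.9 to 26.3 CPM.

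The other counts rose by the test in 6 of these genes, the exceptions being ALMS1, where they fell, and TASOR, where they were not called. DCTN5, a subunit of dynactin, had shares of 32.0% to 38.7% (median 34.9%) and 19.6% to 26.2% (median 23.0%), and its other counts rose with an LFC of 0.70 while the retained-intron counts fell by 0.17. BIRC6, a large inhibitor of apoptosis protein, had shares of 10.4% to 22.4% (median 18.9%) and 6.18% to 9.25% (median 7.31%), with other counts up by an LFC of 0.73. ARIH1, a ubiquitin ligase, had shares of 43.1% to 51.6% (median 47.4%) and 32.9% to 38.5% (median 34.1%). GLT8D1, a glycosyltransferase gene and the exception with whole introns, had shares of 36.1% to 43.5% (median 39.6%) and 23.7% to 30.7% (median 27.7%). Its retained-intron counts were not called (LFC 0.06, adjusted p = 0.39), and its other counts rose with an LFC of 0.86.

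**Figure D4:**
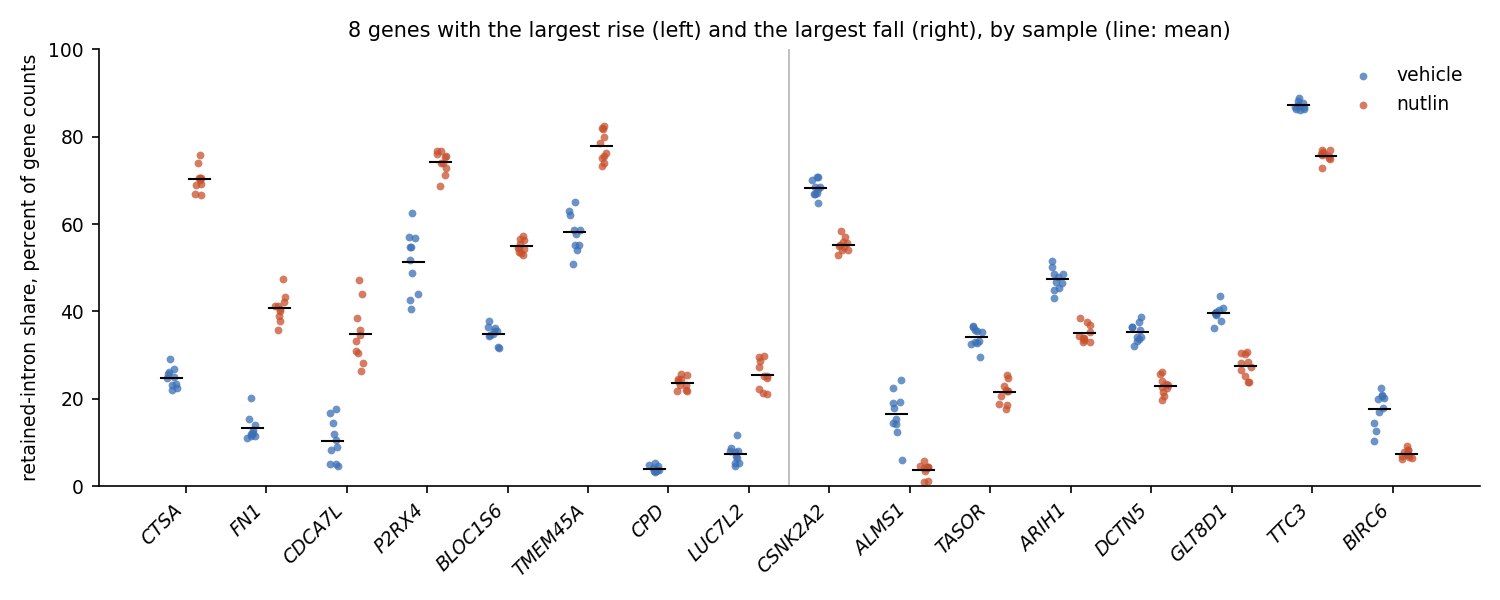
Each point is the retained-intron share of 1 sample, in percent of the counts of the gene, for the 8 genes with the largest rise (left of the line) and the 8 with the largest fall (right of it), and horizontal bars are group means. By choice the groups do not overlap in any of the 16 genes, and CTSA shows the widest gap, with means of 24.9% and 70.3%.

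In 5 genes nearly all counts fell on retained-intron transcripts. JMJD8 had mean shares of 97.2% in vehicle and 95.7% in nutlin samples, ZNF598, a ubiquitin ligase of stalled ribosomes, 96.1% and 97.4%, and PSMB10, a subunit of the immunoproteasome, 97.2% and 93.8%. For WASH6P they were 94.7% and 95.7% and for GOLGA8A 90.8% and 91.7%, 2 genes with near-identical copies elsewhere in the genome between which reads can be split. Only PSMB10 among the 5 was called, and lower (log2 odds ratio -1.18, SE 0.34, adjusted p = 0.0062), with groups that overlapped. It was not called with only whole-intron transcripts (-0.14) or with only the others (-0.30). WASH6P was called lower with only whole-intron transcripts (log2 odds ratio -0.33). The other counts of JMJD8, ZNF598 and PSMB10 were under 2 CPM in both groups. Transcripts of JMJD8 overlap STUB1 on the opposite strand, which was at 52.4 and 55.2 CPM.

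Genes of the splicing machinery were examined next, as lists of known members. Of 14 SR and TRA2 proteins, which bind exons and recruit the spliceosome, 10 could be tested. Of these, 9 (90%) had a higher share and none a lower one, against 43.1% and 7.01% over all genes tested. Their median log2 odds ratio was 0.49, against 0.31 over all genes tested. The median gene LFC of the list was -0.77, and among all genes tested whose total fell, 50.3% had a higher share. TRA2B had shares of 18.3% and 31.8% (log2 odds ratio 1.06, SE 0.087), SRSF9 of 12.02% and 22.4% (1.07, SE 0.082), SRSF4 of 9.83% and 19.0% (1.11, SE 0.11) and SRSF2 of 2.53% and 6.58% (1.501, SE 0.21), as means of the vehicle and of the nutlin samples. In TRA2B, SRSF9 and SRSF4 the groups did not overlap. The exception, SRSF5, had means of 28.2% and 29.9% (adjusted p = 0.16). SRSF11 was not called with TPM (log2 odds ratio 0.21). SRSF7 was not called in only the 16 samples whose replicate numbers occur in both groups (0.29). Among the 9 called higher, whole-intron transcripts carried most retained-intron counts only in SRSF4 (SRSF4-207, 95.0%) and TRA2A (TRA2A-209, 96.4%). In SRSF3, SRSF7, SRSF9, SRSF10, SRSF11 and TRA2B the leading retained-intron transcript held only part of an intron.

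What rose in these genes was the share more than the level. SRSF9 had 25.5 and 25.4 CPM of retained-intron counts in vehicle and nutlin samples, while its other counts fell from 186 to 88.6 CPM. Opposite its transcripts lies GATC, at 53.8 and 71.5 CPM. SRSF3 and SRSF10 lost both, with an LFC of -0.59 and -0.31 for the retained-intron and of -0.98 and -0.77 for the other counts. For SRSF3 the direction of the share turned with TPM (log2 odds ratio -0.14), and it was not called with only whole-intron transcripts (0.14). Only SRSF4 had more retained-intron counts by the test (LFC 0.25, adjusted p = 0.011), nearly all on SRSF4-207, which holds the intron whose splice sites are shown above. In SRSF2 the 2 most abundant retained-intron transcripts went opposite ways, SRSF2-206 from 113 ± 65.2 to 55.1 ± 25.6 counts and SRSF2-209, with no base outside coding exons, from 80.6 ± 26.1 to 160 ± 39.7.

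The kinases that phosphorylate SR proteins had 2 of 4 tested called higher and 2 not called, a share of 50% that is close to the 43.1% over all genes tested. CLK1, whose own detained introns are known to respond to the activity of the kinase, had shares of 36.4% ± 3.87 and 34.0% ± 2.48 (log2 odds ratio -0.16, SE 0.096, adjusted p = 0.19). Its 2 main transcripts, each with 2 whole introns, moved apart, CLK1-210 rising with an LFC of 0.93 and CLK1-207 falling with one of -0.30. CLK3 had shares of 30.9% and 30.4%, though it was called higher with only whole-intron transcripts (log2 odds ratio 0.25). Called higher were SRPK1, at 1.14% and 2.67%, and DYRK1A, at 5.62% and 7.01%. SRPK1 was not called with only transcripts that hold a whole intron (log2 odds ratio 1.07), nor was DYRK1A with DESeq2 (0.35) or with TPM (0.26).

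Among hnRNP proteins, which bind introns and exons of nascent RNA, 12 of 15 tested (80%) were called higher and none lower. The figures over all genes tested were 43.1% and 7.01%, and 50.3% of the genes whose total fell had a higher share. The list had a median log2 odds ratio of 0.79 and a median gene LFC of -0.82. Its median shares were small, at 1.42% in vehicle and 1.82% in nutlin samples, with a median difference of 0.73 percentage points. HNRNPA2B1, HNRNPH1 and HNRNPU, described next, had the most retained-intron counts of the list. HNRNPA2B1 had shares of 5.13% to 6.21% (median 5.49%) in vehicle and 11.6% to 13.9% (median 12.5%) in nutlin samples. Its retained-intron level was about the same in both, at 109 and 107 CPM (LFC -0.03, adjusted p = 0.50), while the other counts fell from 1840 to 738 CPM. HNRNPH1 behaved alike, with shares of 39.5% ± 1.77 and 49.6% ± 2.34, 281 and 286 CPM of retained-intron counts, and other counts falling from 429 to 291 CPM. CBX3, which lies opposite some HNRNPA2B1 transcripts, fell from 334 to 181 CPM. For HNRNPU, at 17.8% and 20.3%, both parts fell.

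Of the core spliceosome, 24 of 35 genes tested (68.6%) were called higher and 2 lower, against 43.1% and 7.01% over all genes tested. The median log2 odds ratio was 0.58 and the median gene LFC -0.40. Among all genes tested whose total fell, 50.3% had a higher share. DDX39B, an RNA helicase that also acts in mRNA export, had shares of 40.3% to 49.5% (median 44.7%) and 59.1% to 67.3% (median 60.8%) with no called change of the gene (LFC 0.02). Its transcript DDX39B-215, with 2 whole introns, rose from 2463 ± 255 to 3708 ± 280 counts, and it overlaps ATP6V1G2-DDX39B on the same strand, which fell from 52.0 to 40.5 CPM. SNRNP70, the 70K protein of U1, went from 28.4% ± 1.22 to 35.6% ± 1.08. SNRNP200, a helicase of the U5 snRNP, was called lower, from 16.4% ± 2.06 to 13.1% ± 0.975. That fall lay on SNRNP200-208, a transcript with part of an intron and 72.3% of the retained-intron counts, and with only whole-intron transcripts the log2 odds ratio was positive, at 0.39. Neither of the 2 minor spliceosome genes tested, RNPC3 and ZCRB1, was called.

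Factors that act on the finished RNA were taken as 3 lists. Of 9 nonsense-mediated decay factors tested, 3 (33.3%) were called higher and 2 lower, with a median log2 odds ratio of 0.00. Over all genes tested 43.1% were called higher and 7.01% lower. RNPS1 was among the higher ones, at 14.1% and 18.1%, and SMG5 among the lower ones, at 5.41% and 4.61%. UPF3A, at 24.5% and 23.0%, was not called. Of 17 RNA export and decay genes, 9 (52.9%) were called higher and 2 lower (median 0.41, median gene LFC -0.53). EXOSC8, of the RNA exosome, had shares of 18.9% to 26.3% (median 21.3%) and 32.7% to 44.5% (median 36.6%), beside SUPT20H on the opposite strand at 63.6 and 66.6 CPM. Cleavage and polyadenylation factors had 7 of 12 (58.3%) called higher and none lower (median 0.60). CPSF4 was at 23.96% ± 1.82 and 32.6% ± 1.55 as the whole gene rose (LFC 1.25).

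In 19 genes known for detained introns, 10 (52.6%) were called higher and 4 lower, with a median log2 odds ratio of 0.16. Over all genes tested 43.1% were called higher and 7.01% lower, with a median of 0.31. DDX5 and DDX17 are RNA helicases and had the most retained-intron counts of the list, nearly all on 1 transcript each with 1 whole intron. DDX5 went from 61.5% ± 1.63 to 65.3% ± 1.80 and DDX17 from 36.0% to 38.5%, 2 small rises with overlapping groups. With only transcripts that hold no whole intron both log2 odds ratios were negative, at -0.51 and -1.33, and DDX17 was not called with TPM (0.046). Nor was DDX17 called with a term for the replicate number, in the 16 samples with shared numbers (0.15). DDX5 was not called against protein_coding and retained-intron transcripts alone (0.13). The cyclin CCNL2 was called lower, from 56.8% ± 2.28 to 51.5% ± 2.47 (log2 odds ratio -0.31, SE 0.068), but against protein_coding and retained-intron transcripts alone its log2 odds ratio was 0.013 and no call was made. EIF4A2, which also stands among the translation factors, was called lower, from 34.6% to 30.2%, though not with TPM (-0.10). Both of these genes rose as a whole, CCNL2 with an LFC of 0.60 and EIF4A2 with one of 0.29.

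The p53 axis holds the genes most directly tied to nutlin-3, and of 28 genes listed only 7 could be tested. Of these, 4 (57.1%, against 43.1% over all genes tested) were called higher and 2 lower. All 7 rose as genes, and in each the retained-intron counts rose too. MDM2 itself, which p53 induces, rose with an LFC of 4.49, and its retained-intron counts went from 11.3 to 64.2 CPM. Since the other counts went from 215 to 5028 CPM, its share fell from 3.79% to 6.02% (median 5.41%) in vehicle to 1.08% to 1.43% (median 1.27%) in nutlin samples, with a log2 odds ratio of -2.04 (SE 0.090, adjusted p = 5.69e-14). DDB2, which recognises DNA damage, also had a lower share, 45.1% to 59.4% (median 50.1%) against 38.05% to 44.7% (median 41.7%), with an LFC of 2.15 for the retained-intron and 2.73 for the other counts. With only transcripts that hold a whole intron DDB2 was not called (log2 odds ratio -0.07).

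BAX, which opens the outer mitochondrial membrane, went the opposite way. Its share was 17.6% to 28.1% (median 24.004%) in vehicle and 35.6% to 38.5% (median 37.5%) in nutlin samples (log2 odds ratio 0.91, SE 0.085, adjusted p = 1.46e-08). The transcript BAX-210, with the 87-base intron shown above, rose from 221 ± 67.4 to 934 ± 99.7 counts, and BAX-206, also with a whole intron, from 150 ± 26.3 to 877 ± 76.2. RPS27L, a ribosomal protein paralog, had shares of 1.73% ± 0.375 and 4.33% ± 0.717, all on RPS27L-206, which holds 4 whole introns. CCNG1 (2.85% and 7.82%) and XPC (3.61% and 5.08%) were called higher with overlapping groups, CCNG1 not with TPM (log2 odds ratio 2.38) and XPC beside the antisense gene XPC-AS1, which went from 2.40 to 12.4 CPM, and whose part was not tested. AEN, a nuclease, had 9.997% ± 0.857 and 10.52% ± 0.881 and was not called.

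Lists of cell cycle genes had lower gene levels after nutlin, with a median gene LFC below 0 in both. The SR, hnRNP and core spliceosome lists above also had a median gene LFC below 0. Of 17 DNA replication genes tested, 4 (23.5%, against 43.1% over all genes tested) were called higher and 3 lower. The median log2 odds ratio was -0.09 and the median gene LFC -1.58. MCM7, a subunit of the replicative helicase, was 1 of the 4 called higher. Its shares were 54.6% to 61.1% (median 57.4%) and 66.8% to 72.9% (median 69.7%), while its transcript MCM7-209 fell from 5687 ± 542 to 2523 ± 196 counts. That transcript holds 1 whole intron of 75 bases and overlaps AP4M1 on the opposite strand (16.7 and 24.8 CPM). Of 20 mitosis genes 7 (35%) were called higher and 2 lower (median 0.34, median gene LFC -2.72). CKAP5, which binds microtubules, and CENPF, of the kinetochore, were the 2 lower ones, at 24.4% and 18.7% and at 4.01% and 2.43%.

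Ribosomal proteins, with the most members tested, had 13 of 63 genes called higher (20.6%) and 18 lower, and a median log2 odds ratio of -0.10. Over all genes tested 43.1% were called higher and 7.01% lower. RPL4, with 23249 retained-intron counts on average, had shares of 66.8% ± 0.993 and 64.8% ± 1.67, called lower. It was not called with only transcripts that hold no whole intron (log2 odds ratio -0.11). Nor was it called in only the 16 samples whose replicate numbers occur in both groups (-0.13). The tRNA synthetases, which load amino acids onto tRNA, had 13 of 18 (72.2%) called higher and none lower (median 0.48). MARS1 was at 6.08% to 8.64% (median 6.70%) and 12.2% to 15.4% (median 13.5%). Of 28 translation factors 14 (50%) were called higher and 4 lower (median 0.22). Neuronal and adrenergic genes had 7 of 11 (63.6%) called higher and none lower (median 0.31). Among these was UCHL1, a neuronal deubiquitinase, at 46.6% ± 1.01 and 54.3% ± 2.28. With only transcripts that hold no whole intron its log2 odds ratio was -0.15. TH, which makes the precursor of dopamine, was also called higher, at 28.2% ± 1.20 and 32.7% ± 1.34.

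**Figure D5:**
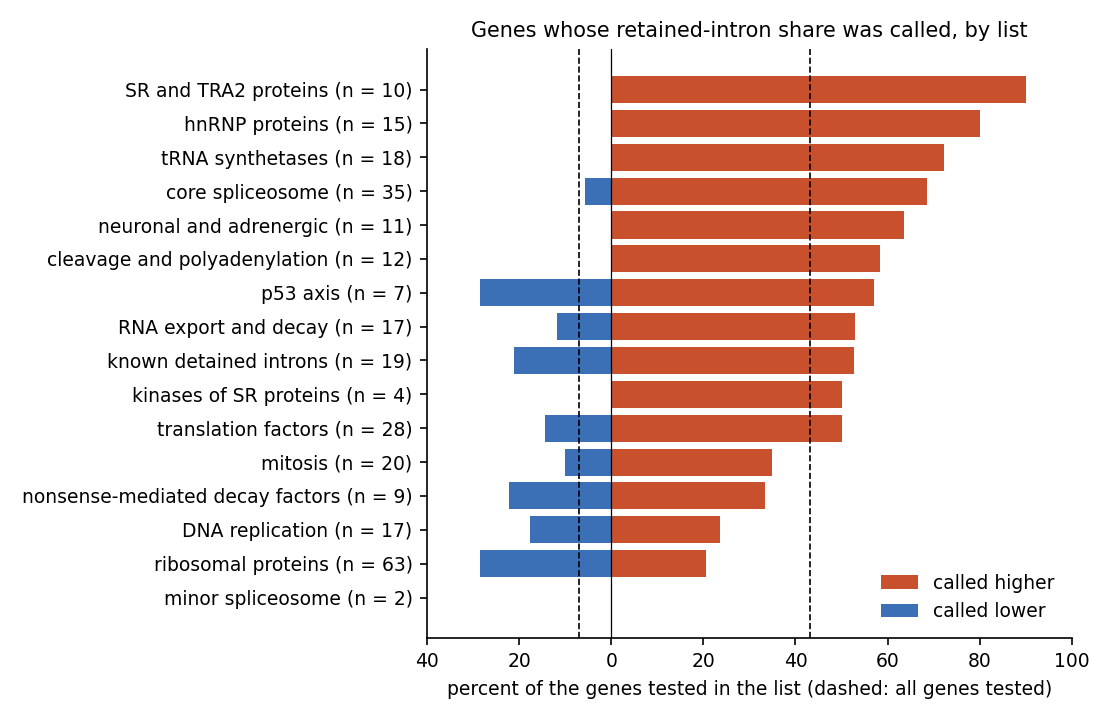
Bars give the percentage of the genes tested in each list whose share was called higher (red, to the right) or lower (blue, to the left) after nutlin, with the number tested in brackets, and dashed lines mark the percentages over all 3793 genes, 43.1% and 7.01%. SR and TRA2 proteins reach 90% higher with none lower, and ribosomal proteins 20.6% higher.

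At the limit of 200 counts, RTKN was just inside with a lowest count of 200.0002 and mean shares of 21.1% and 25.3%, and NCOA1 just outside with 199.9995 and shares of 0.259% and 0.431%.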

How the data were processed

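Poly(A) RNA-seq of 10 vehicle and 10 nutlin samples was used. The authors quantified read pairs per transcript with kallisto 0.42.4 on GRCh38 with Ensembl transcripts and deposited, for each sample, estimated counts, TPM and effective lengths. Whether the strand was used is not given in the sources used here. Transcript and gene types came from GENCODE release 44, which matched 96.0% of the transcripts, and 95.0% of the retained-intron transcripts had the same length in both annotations. The type of a transcript, which defines the members, may differ between these releases, and this was not tested.

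Estimated counts were rounded and the share of each gene was tested with edgeR 4.0.16 (R 4.3.3), by the quasi-likelihood test of count type by condition with 1 term a sample, Benjamini-Hochberg adjustment over the 3793 genes tested and a 5% FDR. Genes, transcripts and both parts of each gene were fitted by condition with TMM normalisation. All adjusted p-values are from these edgeR fits. Alternatives used DESeq2 1.42.0, limma 3.58.1, TPM and other minimum counts. Odds ratios compare retained-intron with other counts on the log2 scale.

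Genes were named by rule: the 8 largest rises and 8 largest falls among called genes with no overlap between groups and at least 50 retained-intron counts on average, the 5 largest shares, all tested SR proteins, their kinases and p53 axis genes, and examples from other lists with the most retained-intron counts. The class of members and the lists were chosen for description with earlier results of these data known. Intron statistics left out introns under 30 bases. Samples of both groups shared 8 replicate numbers, whose deviations from the group means had correlations of -0.044 to 0.049, none over 0.1, so the numbers were not taken to pair samples.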

Additional observations from a re-analysis of the deposited data

Results flagged for a closer look

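The shares of the 80 named genes and 4 measures per sample were examined in each group of 10 samples for a sample far from the others, by Dixon's ratio at its 95% critical value. Of 168 groups 10 had one, where that rule alone gives about 1 in 20. FN1 had a share of 20.3% in vehicle sample 12 and MARS1 of 8.64% in vehicle sample 9, each the highest of its group. ZNF598 had 88.5% in vehicle sample 3 and JMJD8 83.2% in vehicle sample 5, each the lowest. Among nutlin samples, DDX39B (67.3%) and DDX5 (69.4%) were highest in sample 1 and SRSF9 (27.5%) in sample 2. TTC3 was lowest in sample 9 (72.8%), EIF3L in sample 8 (69.4%) and JMJD8 in sample 7 (70.2%).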

How the results depend on the processing

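The counts of genes called were lowest where fewer genes were tested than the 3793, of which 43.1% were called higher and 7.01% lower. With only transcripts that hold a whole intron, 838 of 1958 genes (42.8%) were called higher and 156 (7.97%) lower. With only those that hold none, 1082 of 3036 (35.6%) were higher and 173 (5.7%) lower. Both choices were made after seeing the data. Among genes without an overlapping gene there were 1039 of 2423 (42.9%) and 161 (6.64%), also added after seeing the data. The other alternatives gave 1121 to 1791 genes higher and 178 to 286 lower. These were 33.1% to 48.3% and 4.69% to 9.51% of the genes tested. The difference in pooled share was 1.08 to 1.61 percentage points over the alternatives that use all retained-intron transcripts. It was 0.828 for transcripts with a whole intron and 0.631 for those without, which are parts of the same share. For the decay share, a mean minimum of 50 counts gave 377 genes higher. With the replicate block, in the 16 samples with shared numbers, 1278 genes were called higher and 213 lower, against 1385 and 236 in the same samples without the block, and the decay share had 356 and 75. Of 975 values for the 80 named genes under the alternatives, 11 had the opposite sign. With only whole-intron transcripts the log2 odds ratio was -0.33 for WASH6P, 0.25 for CLK3 and 0.39 for SNRNP200, and each was called. With only the others it was -0.0025 for DDX39B, -0.51 for DDX5, -1.33 for DDX17, 0.11 for EIF4A2 and -0.15 for UCHL1. Of these only DDX17 was called. With a denominator of coding and retained-intron transcripts it was 0.31 for UPF3A, which was called, and 0.013 for CCNL2. With TPM it was -0.14 for SRSF3. Neither CCNL2 nor SRSF3 was called there. The cause was not tested.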

Other observations

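The largest log2 odds ratios were looked up after the values were seen, and they fell partly on genes not described above. MPP2, a scaffold protein gene, had 0 retained-intron counts in every vehicle sample and 155 to 221 in the nutlin samples, where the share was 14.1% to 16.6%, all on MPP2-209. CPM, for carboxypeptidase M, had 0 to 8.13 such counts in vehicle and 96.1 to 281 in nutlin samples, with median shares of 0.363% and 12.2%. LONP2, a peroxisomal protease gene, had median shares of 1.19% and 7.92%. In the other direction JMJD1C had 5.17% and 1.58% and LRRC37A2, which has near-identical copies, 94.7% and 85.7%.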
